A study of Mus musculus with 16 samples.

Results

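P6D4 is a mouse line of the SCID.adh murine thymic lymphoma, given in the labels as DN3, the stage at which a thymocyte that still lacks CD4 and CD8 rearranges its T cell receptor beta genes. It was described here on its own from 4 of the 16 samples of the series: its 3 RNA-Seq libraries and the list of sites at which the transcription factor Miz1 was found by chromatin immunoprecipitation and sequencing (ChIP-Seq). The series holds 8 P6D4 samples in all, and the 3 histone marks and the input were not analysed here. The labels name no treatment, time, added gene or deletion for any of them. P6D4 is 1 line from 1 lymphoma, whether the RNA libraries came from separate cultures is not stated, and the Miz1 ChIP was done once, so the spread below is the spread between libraries of this line.

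Thymocytes pass from progenitors that carry Kit and CD44 to DN3 cells that carry CD25 (Il2ra) and express Rag1, Rag2 and the pre-T alpha chain (Ptcra). Notch1 signalling, with Tcf7, Gata3 and Bcl11b, drives entry into and commitment to this lineage. Miz1, the product of Zbtb17, has a POZ domain and zinc fingers, binds core promoters, activates genes involved in vesicle transport and autophagy, and can repress others in a complex with Myc. It is known to be needed for early T and B cell development downstream of the IL-7 receptor.

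The RNA libraries held 54815145, 52076755 and 48255176 counts in genes in replicates 1, 2 and 3. Values are CPM, a gene's counts scaled to a fixed total of counts in genes, which measures a gene's share of the reads and is not corrected for transcript length, so orders of genes below are orders of read shares. At this depth a gene with no read in any library has at most 0.0193 CPM over the 3 libraries together, taking 3 counts as the limit that 0 allows, and counting error only. Each pair of libraries differed by more than counting error, with a chi-square per degree of freedom of 6.95, 13.8 and 4.81 for the 3 pairs, so none was a second deposit of another. The biological coefficient of variation common to all genes on was 4.38% (edgeR), and 2.91% without replicate 1.

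All 5 genes that mark the line were on in every library. Thy1, a pan-T surface protein, had 689, 681 and 659.6 CPM in replicates 1, 2 and 3, and Notch1 had 561, 543 and 551 CPM. Rag1, a recombinase subunit, had 528, 516 and 483 CPM, and Cd3e, one of the CD3 chains that signal for the receptor, had 375, 387 and 386 CPM. Ptcra had 30.4, 32.0 and 30.2 CPM. The 5 genes are shared by several stages of T cell development and do not set the stage. With Il2ra at 54.7 ± 2.79 CPM (SD, n = 3), Kit at 3 reads and Cd44 at 6 reads over all 3 libraries, Il2ra was on and the progenitor markers off, as the DN3 stage is described. Cd8a and Cd8b1, which that stage is described as lacking, were on and are given below, and Dntt, which it is described as expressing, was off at 0.149 CPM.

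A gene was called on at a mean of 1 CPM or more. Genes on numbered 10843, which was 28.3% of all genes of the files, while 20175 had no read in any library and 7275 were off with at least 1 read. Among protein-coding genes matched to RefSeq, 9908 of 20611 were on (48.1%), and 91.4% of genes on were protein-coding. Of 2347 long non-coding RNA genes 230 were on, and of 4661 pseudogenes 465. The median level of genes on was 43.3 CPM, with 8672 genes at 10 CPM or more, 2624 at 100 or more and 66 at 1000 or more. Genes on held 99.9% of all counts. The state of few genes turned on the threshold: 673 genes had a mean from 0.5 to under 1 CPM and 663 from 1 to under 2. Among the genes named below, Pparg (1.04 CPM) and Notch4 (1.09 CPM) were just inside it, and Tnfrsf1b (0.997 CPM) and Cd5 (0.990 CPM) just outside.

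The 20 highest RNAs of the line held 5 mitochondrial genes, 3 genes of glycolysis, 2 ribosomal proteins and 2 elongation factors, beside 8 others. The mitochondrial cytochrome oxidase gene mt-Co1 came first with 7899, 8116 and 7278 CPM in replicates 1, 2 and 3, followed by the elongation factors Eef2 (6390.1, 6501 and 6429.7 CPM) and Eef1a1 (6440.0, 6489.5 and 6194 CPM). The other mitochondrial genes among the first 20 were mt-Nd1 (5064 ± 247 CPM, SD, n = 3), mt-Cytb (4121 ± 297), mt-Nd2 (3373 ± 18.1) and mt-Nd5 (2623 ± 92.6). All mitochondrial genes together took 2.49 to 2.67% of counts. The chaperone Hsp90ab1 had 4537 ± 87.4 CPM, and the ribosomal proteins Rpl8 and Rpl4 had 2973 ± 31.2 and 2524 ± 76.8 CPM.

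Of glycolysis, Pkm, Aldoa and Ldha were among the first 20, and each was highest in replicate 3. Pkm, which makes pyruvate, had 3237, 3332 and 3563 CPM in replicates 1, 2 and 3. Aldoa, the aldolase, had 2883, 3252 and 3541 CPM, and Ldha, which makes lactate, had 2377, 2356 and 2539 CPM. Scd2, a fatty acid desaturase, was the highest nuclear gene outside translation with 4412, 4636 and 4902 CPM. Ndrg1, a gene known for its induction by hypoxia and differentiation, had 2018, 2654 and 3303 CPM and was the least even of the first 20. The remaining genes of the first 20 were the ATP synthase subunit Atp5b (2794 CPM), the poly(A)-binding protein Pabpc1 (2790.5), the nucleolar proteins Ncl (2394) and Npm1 (1995) and the tubulin Tubb5 (2152). Together the 10 highest genes held 4.85 to 4.94% of counts in a library, the 100 highest 16.5 to 16.7% and the 1000 highest 48.9 to 49.1%. The highest gene of the list of T lineage and lymphoid transcription factors, Tcf7, was at rank 40 of all genes. Reads that align to several places are not in the counts and numbered 1.10 to 1.14 alignments per count, so genes with near-identical copies can be undercounted. Gapdh, which has many such copies in the genome, was listed at 47.1 ± 4.01 CPM.

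Of the genes chosen to describe the line, 513 symbols in 21 lists, 510 were found in the table and 314 were on (61.6%), against 48.1% of all protein-coding genes. The lists were drawn up for thymocytes, so that share is a description of the choice. Receptors were on in 109 of 198 cases and transcription factors and their partners in 102 of 150, whereas markers of other cell types were on in 15 of 67.

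RNA of the CD3 chains, Ptcra and the beta constant region Trbc2 was present. Counted reads of the alpha and gamma constant regions were at or near 0. Whether a rearranged beta chain was expressed was not tested. Of 11 genes found, 6 were on (54.5%, near the 48.1% of all protein-coding genes). These were the CD3 chains Cd3e (382 ± 6.79 CPM), Cd3g (202 ± 7.02), Cd3d (162 ± 6.54) and Cd247 (154 ± 0.940), then Ptcra (30.9 ± 0.984) and the beta chain constant region Trbc2 (SD, n = 3). Trbc2 had 11.3, 11.1 and 10.9 CPM in replicates 1, 2 and 3. The second beta constant region, Trbc1, had 3 reads over all libraries, the alpha constant region Trac had 2, and the gamma constant regions Tcrg-C1, Tcrg-C2 and Tcrg-C4 had 1, 0 and 4. Trbc1 and Trbc2 are nearly identical in sequence, so the division of reads between them is uncertain. Reads that align to both are not in the counts, so their total can be too low. The same holds for any reads that align to several gamma constant regions. Trdc was not matched in the table.

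Of 31 thymocyte surface genes 20 were on (64.5%, against 48.1% of all protein-coding genes). Ptprc, the CD45 phosphatase, had 1066, 1133 and 1107 CPM, and Cd24a, high on immature thymocytes, had 423, 449 and 492 CPM in replicates 1, 2 and 3. The stage marker Il2ra had 52.5, 57.9 and 53.8 CPM, and the costimulatory receptors Cd28 and Cd27 had 34.3 ± 4.86 and 10.9 ± 0.907 CPM (SD, n = 3). Spn, Cd2 and Cd48, surface glycoproteins of leukocytes, had 73.9 ± 2.17, 41.6 ± 2.96 and 38.0 ± 2.50 CPM. Both chains of CD8, the coreceptor for MHC class I, were on: Cd8a had 65.5, 77.8 and 79.95 CPM and Cd8b1 35.8, 36.7 and 35.8 CPM. Cd4 was on near the threshold with 2.86, 2.92 and 2.78 CPM. In bulk RNA fewer cells of a type and less RNA per cell cannot be told apart. Of the genes off, Cd69, an activation marker, had 0.329 CPM, Cd96 had 0.928, and Cd38 had 0.123. Of the 8 genes listed for costimulation and inhibition 3 were on, Cd160 (8.402 CPM), Btla (3.93) and Lag3 (1.77). The costimulatory receptor Icos (0.440) and the inhibitory receptors Pdcd1 (0.0521), Ctla4 (0.0462), Havcr2 (3 reads in all) and Tigit (1 read) were off.

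The machinery that carries a T cell receptor signal was on in 20 of 22 cases (90.9%, against 48.1% of all protein-coding genes). Lck, the kinase that phosphorylates the CD3 chains, had 398, 404 and 406 CPM in replicates 1, 2 and 3, and Themis, an adaptor of thymocyte selection, had 326, 359.9 and 364 CPM. Csk, which inhibits Lck, had 267 ± 4.26 CPM (SD, n = 3). Fyn had 152 ± 5.90, the adaptor Lat 144 ± 6.10, and the phospholipase Plcg1 124 ± 7.37 CPM. The 2 related kinases that dock on phosphorylated receptor chains differed in state: Zap70 had 53.03 ± 1.54 CPM, whereas Syk had 3 reads over all libraries. The remaining member that was off was Prkcq, the kinase PKC theta, with 13 reads. Plcg2, the phospholipase of B cells, and the kinase Txk were on near the threshold at 1.28 and 1.26 CPM.

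Of 34 genes of the Notch pathway 26 were on (76.5%, against 48.1% of all protein-coding genes). Of the 4 receptors 3 were well above the threshold. Notch1 had 552 ± 8.85 CPM and Notch3 399.9, 386 and 387 CPM in replicates 1, 2 and 3, Notch2 had 89.6 ± 1.84 and Notch4 1.09 ± 0.0628 CPM (SD, n = 3). Of 5 ligands 1 was on, Jag2 with 14.5 ± 1.26 CPM (SD, n = 3), whereas Dll4 had 0.568 and Dll3 0.427 CPM, and Dll1 and Jag1 had no read. Of 7 listed targets of Notch 4 were on (57.1%, near the 48.1% of all protein-coding genes). Dtx1 had 192, 191 and 189, Nrarp 197, 188 and 179.7 and Hes6 130.4, 131 and 127 CPM, and Hes1 had 36.8 ± 0.487 CPM. These levels differed little between libraries. The other listed targets, Hes5, Hey1 and Heyl, were off at 0.244, 0.217 and 0.363 CPM.

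Proteases, secretase subunits and nuclear effectors that cut and carry the signal were on: the proteases Adam10 (157 ± 2.04 CPM) and Adam17 (98.0 ± 3.18), the gamma-secretase subunits Psen2, Ncstn, Aph1a and Psenen (14.2 to 75.5 CPM), the DNA-binding protein Rbpj (28.2 ± 1.247) and the coactivators Maml1, Maml2 and Maml3 (11.4 to 36.5 CPM). Of the 3 Fringe enzymes, which add sugars to Notch and alter its response to ligands, Mfng (92.0 ± 0.713 CPM) and Rfng (27.4 ± 0.922) were on and Lfng had 6 reads in all. Fbxw7, the ligase that degrades the intracellular domain, had 32.9 ± 1.89 CPM.

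For V(D)J recombination and the joining of its ends 18 of 19 genes were on (94.7%, against 48.1% of all protein-coding genes). Xrcc6, the Ku70 end-binding protein, had 649.8, 642 and 601 CPM, and the DNA-bending cofactor Hmgb2 had 487, 503 and 483 CPM in replicates 1, 2 and 3. The 2 recombinase subunits had unequal shares of reads, with Rag1 at 509 ± 23.4 CPM and Rag2 at 14.6, 14.4 and 13.1 CPM, a comparison not corrected for length. Prkdc, the DNA-dependent kinase in which the scid mutation lies, had 69.1, 68.3 and 66.2 CPM, a level that says nothing of the protein. Among the other joining genes were Lig4 (63.2 ± 3.20 CPM), Dclre1c, the Artemis nuclease (36.1 ± 2.00), and Xrcc4 (20.6 ± 0.456, SD, n = 3). The exception was Dntt, the polymerase that adds untemplated bases at the joins, with 6, 9 and 8 reads in the 3 libraries (0.149 CPM). The plot of lineage, Notch and recombination genes shows these levels in each library.

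**Figure D1:**
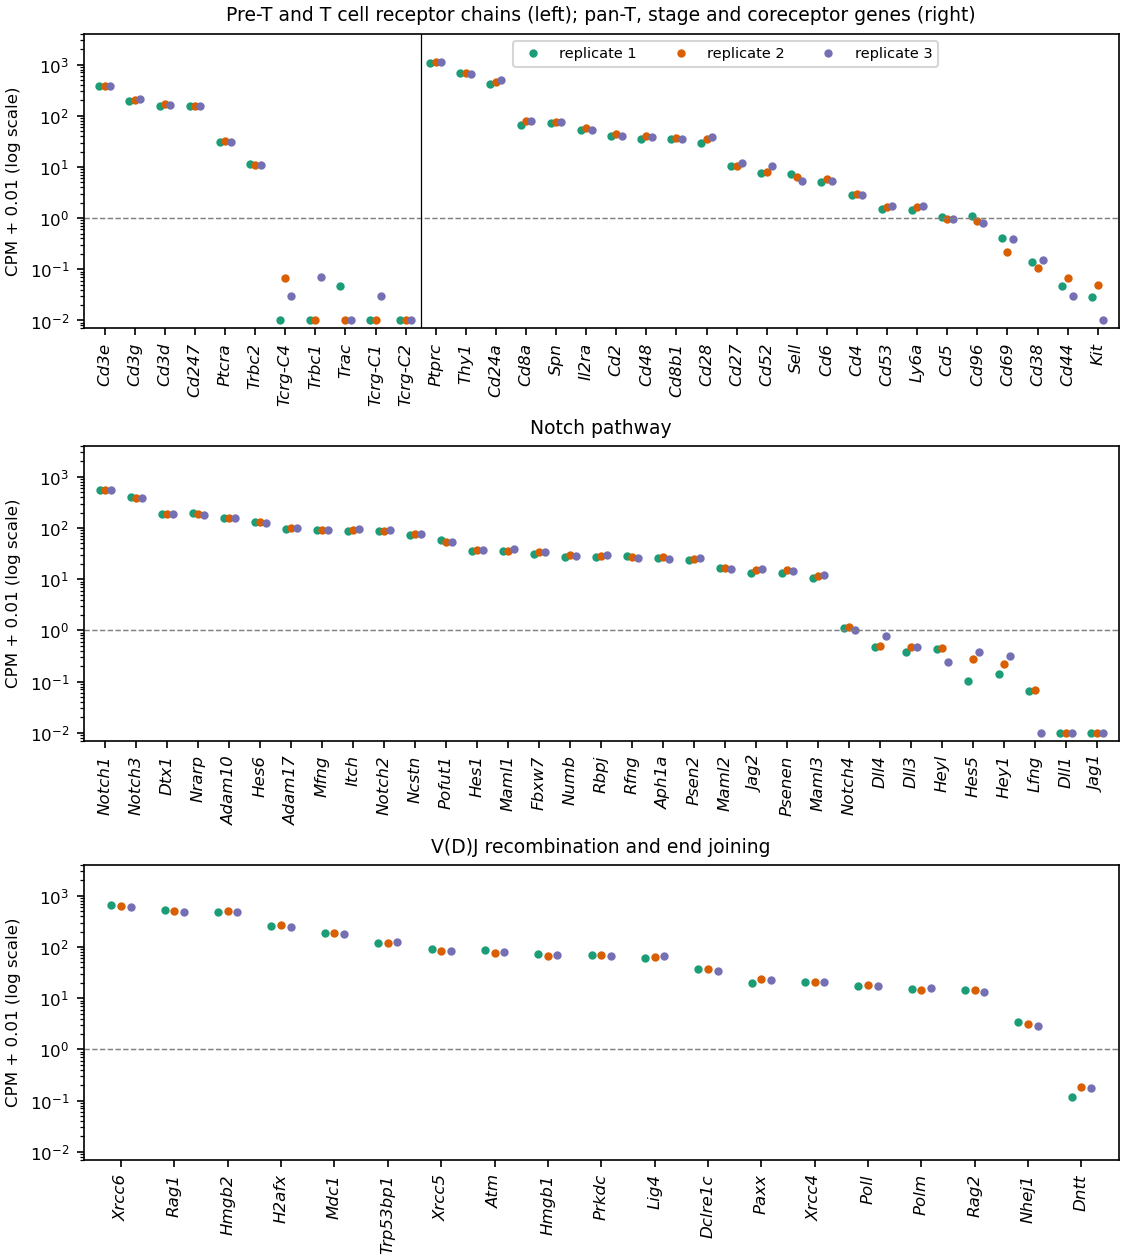
CPM of each gene plus 0.01 on a log axis in P6D4 RNA replicates 1, 2 and 3 (coloured points), for receptor chains and pan-T, stage and coreceptor genes (top), the Notch pathway (middle) and V(D)J recombination (bottom), each ordered by mean; the dashed line marks 1 CPM, the threshold for on. The 3 points of a gene lie close together above the line and spread apart near 0, where they rest on few reads, and Trac, Kit, Cd44, Lfng and Dntt lie below it.

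Transcription factors of the T lineage and of lymphocytes were on in 66 of 80 cases (82.5%, against 48.1% of all protein-coding genes). Tcf7, which encodes TCF-1, led with 1374, 1316 and 1269.8 CPM in replicates 1, 2 and 3. Bcl11b, which holds T lineage commitment, had 431, 439.6 and 443 CPM, Satb1, a chromatin organiser of thymocytes, 324, 324 and 317 CPM, and Gata3 131, 149.97 and 158 CPM. The E proteins Tcf12 (HEB) and Tcf3 (E2A), which drive Rag1 and Ptcra in thymocytes, had 649, 645 and 642 and 306, 291 and 292 CPM. Their inhibitor Id2 was on at 125, 139 and 142 CPM and Id3 at 3.69, 7.07 and 7.03 CPM, whereas Id4 had no read and the third E protein Tcf4 had 11 reads in all. Lef1, the relative of Tcf7, had 61.1 ± 3.94 CPM (SD, n = 3).

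Ets1 had 461, 470.2 and 471 CPM and Ikzf1, which encodes Ikaros, 392.4, 417 and 407 CPM. Runx1 and its partner Cbfb had 165 ± 8.67 and 159 ± 6.15 CPM, with Runx3 at 2.10 ± 0.455 and Runx2 off at 0.0765. Myb, needed from progenitor to thymocyte, had 236 ± 6.66 CPM and Gfi1 64.8 ± 3.78, and Gfi1b lay just under the threshold at 0.934 ± 0.324. The Stat and Irf factors of the list were on, with Stat6 (216 ± 10.18 CPM) and Stat3 (199 ± 15.4) highest and Irf4 (3.30 ± 0.329) lowest.

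Factors that define later or innate T cells gave a mixed picture. Tbx21, which encodes T-bet of type 1 helper cells, had 31.9, 33.2 and 34.7 CPM, Rora 129, 138 and 162 CPM and Zbtb16, which encodes PLZF of innate-like T cells, 9.21, 9.43 and 8.87 CPM. Foxp3 of regulatory T cells had 11 reads in all, and Eomes had none. Zbtb7b, which directs the CD4 lineage, was on at 20.8 ± 2.84 CPM (SD, n = 3).

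Among factors listed as inducible, Jund had 197, 237 and 247 CPM, Nfatc3 228, 226 and 224 and Nfkb1 166, 179 and 167 CPM in replicates 1, 2 and 3. Whether any of them was induced in the line was not tested. Klf6 had 224, 284 and 281 CPM and was lowest in replicate 1. Egr1 (16.5 ± 2.57 CPM), Junb (14.7 ± 2.23) and Fos (11.99 ± 2.42) were on at lower read shares, and Jun and Egr3 had no read in any library. The orphan nuclear receptors Nr4a1, Nr4a2 and Nr4a3, which T cell receptor signals induce at once, had 2, 2 and 5 reads.

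Progenitor and leukaemia factors were on in only 3 of 26 cases (11.5%, against 48.1% of all protein-coding genes). Tal1 had 3 reads, Lmo2 1, Lyl1 15, Hhex 6 and Mef2c 13 over the 3 libraries, and 13 of the 26 had no read, among them Lmo1, Tlx1, Tlx3, Hoxa9, Meis1, Gata2 and Mycn. Spi1, which encodes the myeloid and B cell factor PU.1 and is on in the earliest thymocytes, had 1, 0 and 2 reads. The 3 on were Lmo4 (66.5, 62.8 and 62.6 CPM), the B cell coactivator Pou2af1 (36.5 ± 3.36 CPM, SD, n = 3) and Cebpb (19.2, 17.8 and 15.9 CPM). Ebf1 and Pax5, which set the B lineage, were off at 0.0761 and 0.0508 CPM.

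**Figure D2:**
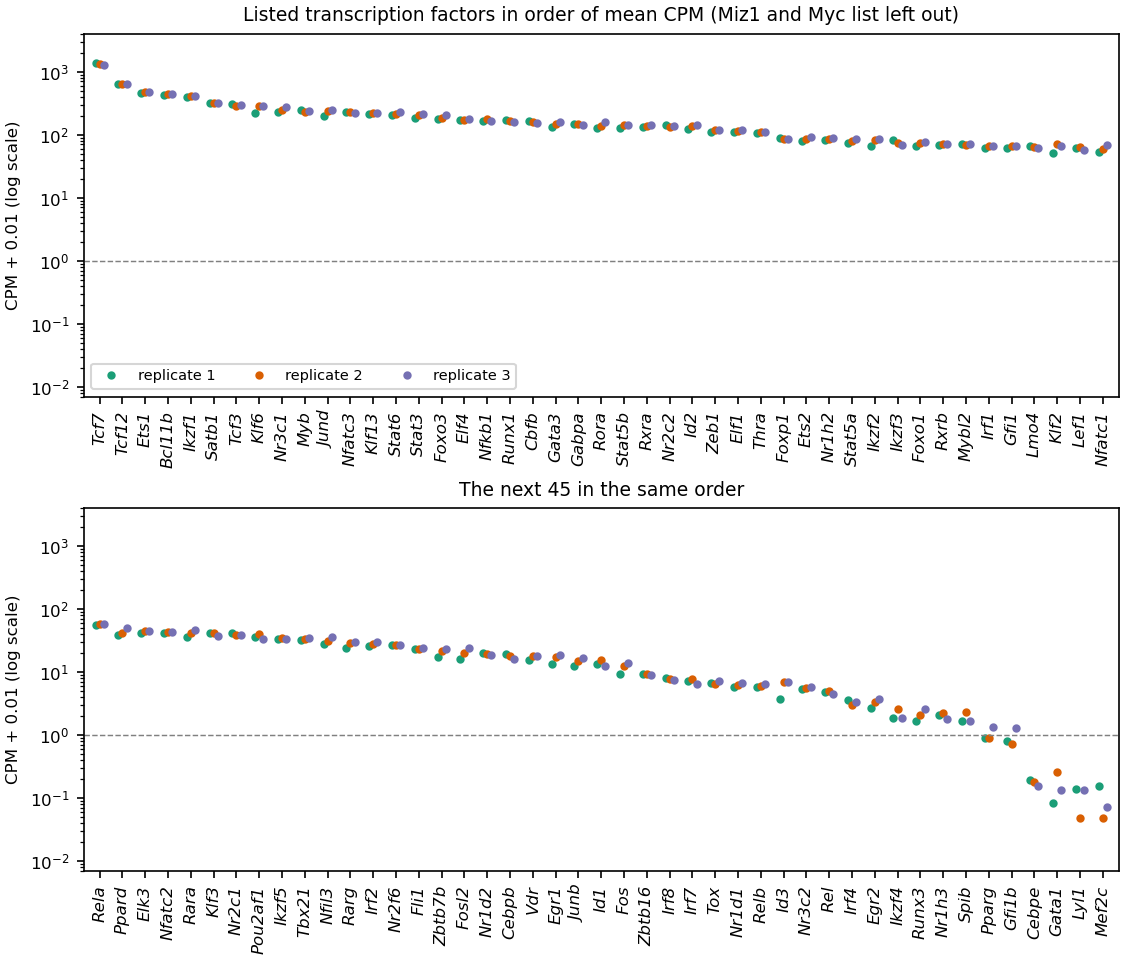
CPM plus 0.01 on a log axis of 90 listed transcription factors in the order of their mean, nuclear receptors included and the Miz1 and Myc list left out, in P6D4 RNA replicates 1, 2 and 3 (coloured points); the lower panel continues the order of the upper one and the dashed line marks 1 CPM. Tcf7 stands apart at the left, the levels decline to Pparg at the threshold, and the means of Gfi1b, Cebpe, Gata1, Lyl1 and Mef2c lie below it.

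Of 27 nuclear receptors 17 were on (63.0%, against 48.1% of all protein-coding genes). The glucocorticoid receptor Nr3c1, through which steroids kill thymocytes, had 231, 248 and 272 CPM in replicates 1, 2 and 3. The retinoid receptors Rxra, Rxrb, Rara and Rarg had 136 ± 5.21, 70.1 ± 0.911, 41.3 ± 5.39 and 27.8 ± 3.38 CPM (SD, n = 3), and Rarb and Rxrg had no read. Nr2c2 had 136 ± 4.30, the thyroid receptor Thra 109 ± 3.58 and the oxysterol receptor Nr1h2 86.0 ± 4.10 CPM. The steroid receptors Esr1 and Pgr had no read in any library. Stra6, a membrane transporter of retinol, was also on at 71.6, 71.5 and 70.4 CPM.

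Cytokine receptors were on in 26 of 41 cases (63.4%, against 48.1% of all protein-coding genes). Every listed member of the common gamma chain family was on. Il7r, whose signal early thymocytes need, had 73.6, 83.9 and 82.4 CPM in replicates 1, 2 and 3, and the shared chain Il2rg had 58.3, 61.9 and 59.3 CPM. Il2rb had 135, 161 and 172 CPM and was lowest in replicate 1. Together with Il2ra these values put RNA of all 3 chains of the high-affinity IL-2 receptor in the line. Il9r had 109, 101 and 93.0 CPM, Il15ra 55.6 ± 0.818, Il21r 7.45 ± 0.584, Crlf2, the chain for thymic stromal lymphopoietin, 6.83 ± 0.0578 and Il4ra 1.77 ± 0.355 CPM (SD, n = 3).

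The IL-12 receptor was on in both chains, Il12rb2 at 82.1, 80.04 and 79.0 and Il12rb1 at 11.0, 12.02 and 13.9 CPM. All 6 chains for interferons and IL-10 were on, from Ifngr2 (5.66 ± 0.509 CPM) to Ifnar1 (63.8 ± 2.09). Il17ra had 102 ± 6.06 CPM, and the other 4 members of the IL-1 and IL-17 family were off. The TGF-beta receptor chains differed in state: Tgfbr1 had 169.6, 165 and 165 CPM, whereas Tgfbr2, the chain that binds the ligand, had 2, 3 and 2 reads, or 0.0452 CPM. The line thus had RNA of 1 of the 2 chains that the TGF-beta receptor needs. The gp130 chain Il6st was likewise on (52.9 ± 1.39 CPM) with its partner Il6ra off (0.291) and Lifr without a read. Of the growth factor receptors Flt3 (6.43 ± 1.23 CPM) and Epor (4.77 ± 0.916) were on, and Csf1r had 2 reads.

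Homing receptors were on in 15 of 28 cases (53.6%), near the 48.1% of all protein-coding genes. Cxcr4, which holds early thymocytes in the cortex, had 182, 209.8 and 211 CPM in replicates 1, 2 and 3, and Ccr9, the receptor for thymic CCL25, only 1.55, 1.27 and 1.31 CPM. Ccr4 had 8.85 ± 0.786 and Cxcr3 7.51 ± 0.641 CPM (SD, n = 3). Ccr7, which moves thymocytes to the medulla, had 12 reads in all and S1pr1, which lets them leave the thymus, 5. S1pr2, a related receptor, was on at 39.1 ± 1.70 CPM. The integrin chains Itgb1, Itgb7, Itga6, Itgal and Itga4 were on at 392.4 ± 14.9, 184 ± 19.3, 183 ± 5.27, 124 ± 10.1 and 77.2 ± 0.433 CPM, and Itga5 had 4 reads.

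In the TNF receptor family 7 of 16 were on (43.8%), also near the 48.1% of all protein-coding genes. The highest, Tnfrsf8, which encodes CD30, had 14.4 ± 1.88 CPM, the death receptor Fas 10.24 ± 1.38 and Tnfrsf13b 7.93 ± 0.525 (SD, n = 3). Tnfrsf1a had 1 read and Ltbr none.

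Of 44 Wnt, ephrin, hedgehog and growth factor receptors 18 were on (40.9%, against 48.1% of all protein-coding genes). The Wnt coreceptors Lrp6 and Lrp5 had 125 ± 2.27 and 88.6 ± 1.19 CPM, with 3 of 10 Frizzled receptors on, Fzd4 (23.7 ± 0.461 CPM), Fzd10 (13.0 ± 0.786) and Fzd5 (12.2 ± 0.340). Ephb2 had 110.1, 116 and 134 CPM in replicates 1, 2 and 3, Ephb4 51.0 ± 2.10 and Ephb6 23.5 ± 2.16 CPM. The hedgehog components Smo and Ptch1 were both on at 109 ± 1.76 and 68.8 ± 4.24 CPM. Igf2r, the mannose 6-phosphate receptor, had 178 ± 7.503 and Insr 79.1 ± 1.62 CPM, and Igf1r was off at 0.642. The somatostatin receptor Sstr2 had 27.6 ± 1.86 CPM, whereas Egfr, Met, Pdgfra and Fgfr2 had no read. Rbpr2 was not matched in the table.

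Zbtb17, which encodes Miz1 itself, had 44.9, 46.6 and 46.2 CPM in replicates 1, 2 and 3. Of 17 genes of Miz1, Myc and their partners 16 were on (94.1%, against 48.1% of all protein-coding genes), and Mycl had no read. Myc had 449, 465 and 473 CPM and its partner Max 84.8 ± 1.36 CPM (SD, n = 3). The factors that bind Miz1 were on: Npm1 had 2098, 1967 and 1920.2 CPM, Huwe1, a ubiquitin ligase of Miz1 and Myc, 838, 749 and 743 CPM, Hcfc1 508 ± 14.9, Topbp1 436 ± 4.10 and Bcl6 10.4 ± 0.995 CPM. Huwe1 was highest in replicate 1. The Max partners that oppose Myc were also on, from Mxd1 (14.8 ± 1.91 CPM) to Mga (223 ± 3.49).

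Cell cycle genes were on in 25 of 29 cases (86.2%, against 48.1% of all protein-coding genes). The proliferation markers Mki67 and Top2a had 1244, 1313 and 1366 CPM and 1196, 1268 and 1291 CPM, and Cdk4 had 764, 752 and 741 CPM. Of the D cyclins, Ccnd1 (188 ± 9.70 CPM) and Ccnd3 (127 ± 6.05) were on and Ccnd2 had 4 reads. The inhibitors Cdkn2a and Cdkn2b had no read in any library and Cdkn1c had 4, whereas Cdkn1a, Cdkn1b and Cdkn2c had 135 ± 14.7, 137 ± 11.8 and 78.7 ± 2.54 CPM (SD, n = 3).

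Of 26 survival and p53 genes 18 were on (69.2%, against 48.1% of all protein-coding genes). Bcl2, an antiapoptotic gene known as a Miz1 target, had 0, 3 and 2 reads, while Mcl1 had 185, 189.5 and 189.8 CPM and Bcl2l1 18.9 ± 0.594 CPM. The proapoptotic genes Bid, Bax, Bak1, Bmf and Bcl2l11 had 93.4 ± 3.05, 77.7 ± 1.61, 70.9 ± 0.423, 49.6 ± 1.77 and 38.5 ± 2.17 CPM. Trp53 had 154 ± 6.51 CPM, and its regulators Mdm2 and Mdm4 had 148 ± 3.90 and 234 ± 5.36. Btg2, a p53 target, had 128, 184 and 186 CPM and was lowest in replicate 1. Pmaip1 had 1 read and Phlda3 none.

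Markers of other cell types were on in 15 of 67 cases (22.4%, against 48.1% of all protein-coding genes), and each list held both members that were on and members at 0. Of 15 B cell genes 2 were on, Ighm (7.33, 8.12 and 11.3 CPM) and Cd22 (2.08, 2.46 and 2.40 CPM), with Ms4a1 at 0 and the list's summed level at 11.2 to 14.8 CPM per library. Of 14 myeloid genes 3 were on, Itgam (25.3, 32.2 and 30.8 CPM), Cd68 (3.50) and Lyz2 (1.98), with Csf1r at 2 reads and S100a9 at 0 and a summed level of 31.6 to 38.5 CPM. Of 14 NK and innate lymphoid genes 6 were on (42.9%, near the 48.1% of all protein-coding genes). These were Tbx21, Rora and Zbtb16, given above, Nkg7 (4.15 CPM), Fcer1g (2.31) and Gzma. Gzma, a granule protease, had 269, 293 and 331 CPM, with Ncr1 at 16 reads and Gzmb and Klrd1 at 0 and a summed level of 445 to 543 CPM. Of 11 erythroid and megakaryocyte genes 2 were on, Itga2b (5.67 CPM) and Epor, with Hbb-bt and Alas2 at 0 and a summed level of 9.49 to 12.3 CPM. Of 13 stromal genes 2 were on, Pecam1 (65.9, 61.0 and 57.6 CPM) and Pdgfrb (4.09), with Col1a1, Epcam and Cdh5 at 0 and a summed level of 61.5 to 70.5 CPM. Whether these transcripts came from P6D4 cells or from others was not tested.

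**Figure D3:**
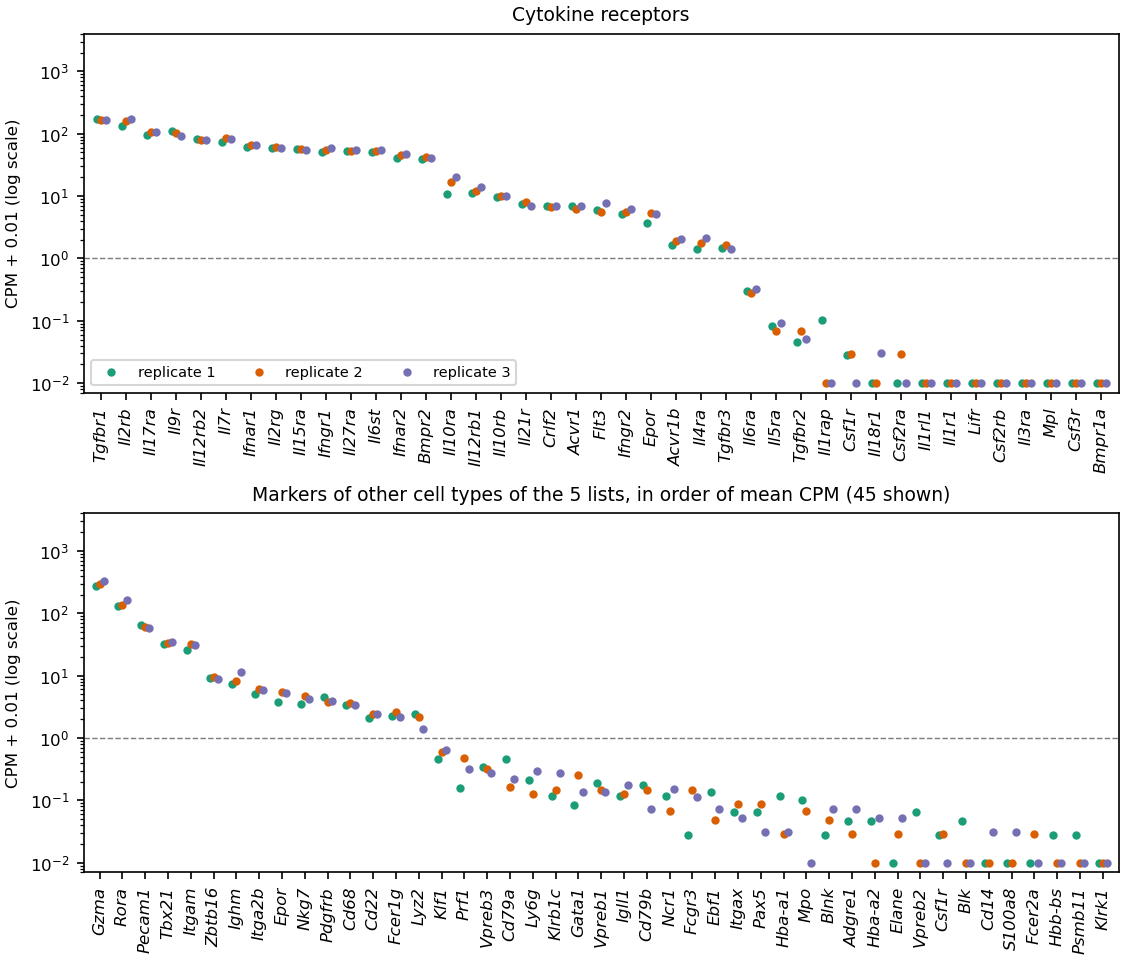
CPM plus 0.01 on a log axis of the 41 cytokine receptors (top) and of 45 markers of other cell types (bottom) in P6D4 RNA replicates 1, 2 and 3 (coloured points), each ordered by mean; the dashed line marks 1 CPM. Tgfbr1 is first of the cytokine receptors while Tgfbr2 lies under 0.1 CPM, and of the other-cell markers Gzma and Rora lie above 100 CPM and most others near 0.

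The 3 libraries were close, and the genes in which they differed most ran mainly in 1 direction. Among 8627 genes at 10 CPM or more the ratio of the highest to the lowest library had a median of 1.06 and a 99th percentile of 1.35, and 29 genes (0.336%) reached 1.5. Of the 10 genes with the largest ratio 9 were highest in replicate 3 and lowest in replicate 1, and 1, Cth, was the other way round, against 24.2% and 25.1% of all 8627 genes in these orders. Of the first 30 genes 26 and 4 were so ordered, and of all 235 genes whose highest library exceeded the lowest by 25% or more, 146 and 61. Gm853 had 7.01, 12.9 and 17.9 CPM in replicates 1, 2 and 3, a ratio of 2.56, and Il10ra, an IL-10 receptor chain, had 10.8, 16.6 and 20.5 CPM. Hmox1, the haem oxygenase that responds to oxidative stress, had 313, 418 and 575 CPM, and Cth, which makes cysteine, had 50.3, 39.3 and 27.5 CPM. The other 6 were Nptxr (13.5, 23.1 and 24.8 CPM), Cd226 (8.01, 11.8 and 14.7), Gipr (15.7, 21.1 and 28.7), Fam102a (22.9, 30.7 and 39.4), Atcayos (20.03, 28.3 and 34.3) and Maff (11.4, 16.0 and 19.3). The libraries carry no date or batch in the labels.

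**Figure D4:**
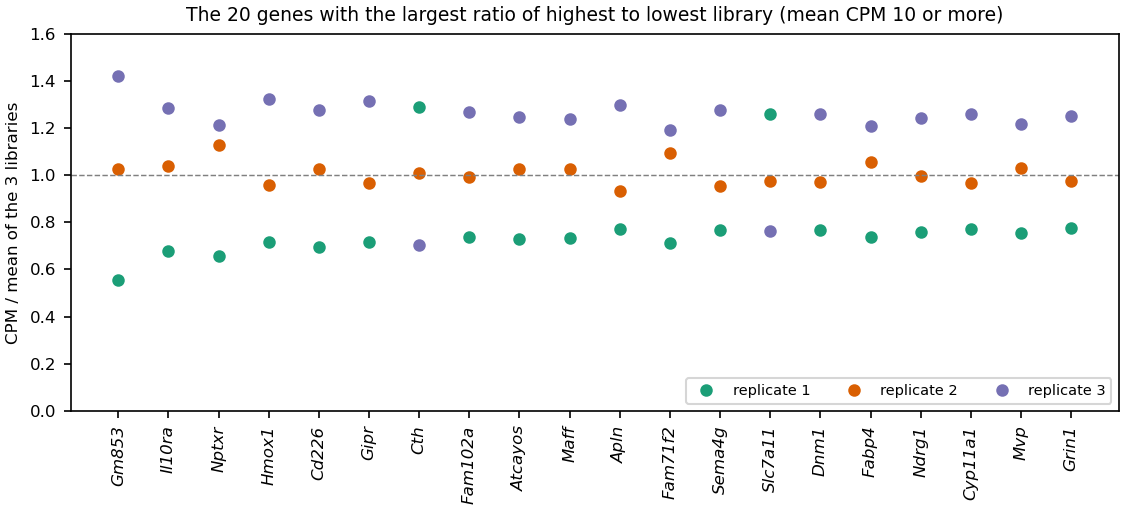
CPM in P6D4 RNA replicates 1, 2 and 3 (coloured points) divided by the mean of the 3 libraries, for the 20 genes with the largest ratio of the highest to the lowest library among genes at 10 CPM or more. In 18 of the 20 genes replicate 3 is highest and replicate 1 lowest, and in Cth and Slc7a11 the order is reversed.

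The Miz1 ChIP of the line gave 21629 peaks from 1 library. Per the file header, the peak caller kept 3.399% of the ChIP tags after removing tags at the same position, against 45.6% of the control tags, so the list rests on a small number of distinct fragments. The fold of a peak is the authors' ratio of tag pileup over the local background, and it was used here only to rank peaks within this list. The median fold was 6.54, with a range from 2.22 to 133, and the median pileup was 11 tags. Of all peaks 240 (1.11%) had their summit within 1 kb of an end of a protein-coding gene, 24.7% lay elsewhere in a gene body and 74.2% outside genes. These summits touched 237 of 21887 protein-coding genes (1.08%), at 216 distinct summits, of which 21 were shared by 2 genes.

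Peaks of high fold lay at gene ends more often than weaker ones. Of 102 peaks at a fold of 20 or more 59 were at gene ends (57.8%), against 0.841% of the weaker peaks, and of the 20 highest 19 were. The boundary of 20 was set after the values were seen. The highest was Cox19, which encodes a protein of mitochondrial cytochrome oxidase assembly, at a fold of 133 and 172 tags. C2cd5 (79.4), Exoc2, a subunit of the exocyst (75.7), the divergent pair Dctn5 and Palb2 (69.6), Taok3 (65.9), Vamp4, a vesicle fusion protein (63.9), Pomt1 (62.5), Tmbim4 (61.8), and Rbsn, an endosomal protein (56.4), followed.

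The sequences before the transcription starts of the 3 highest genes are shown with those of 4 others: Rbsn and Cstf1, which hold the motif ATCGAT, and Vamp4 and Ambra1, known Miz1 targets with a summit. Each is the 200 bases before the start in RefSeq on GRCm38.p6, 5′ to 3′ on the gene's strand, and capitals mark the motif ATCGAT known from Miz1 studies, the E-box of Myc and Max with the letters CACGTG, and the run TCGA, which was looked for after these sequences had been seen.
Cox19, chr5:139345167-139345366, minus strand: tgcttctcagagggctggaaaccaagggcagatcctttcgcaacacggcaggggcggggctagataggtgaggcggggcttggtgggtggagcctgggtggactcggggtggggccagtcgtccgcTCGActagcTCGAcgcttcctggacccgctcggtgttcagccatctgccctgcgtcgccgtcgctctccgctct
C2cd5, chr6:143100153-143100352, minus strand: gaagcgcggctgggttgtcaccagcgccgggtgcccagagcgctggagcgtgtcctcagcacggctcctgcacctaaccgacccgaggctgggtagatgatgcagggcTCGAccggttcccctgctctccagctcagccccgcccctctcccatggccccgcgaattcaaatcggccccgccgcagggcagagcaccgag
Exoc2, chr13:30974048-30974247, minus strand: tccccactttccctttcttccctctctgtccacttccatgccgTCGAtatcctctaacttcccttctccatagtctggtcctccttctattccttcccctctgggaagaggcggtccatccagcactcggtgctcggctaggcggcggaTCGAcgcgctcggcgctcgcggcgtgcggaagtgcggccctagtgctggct
Rbsn, chr6:92214871-92215070, minus strand: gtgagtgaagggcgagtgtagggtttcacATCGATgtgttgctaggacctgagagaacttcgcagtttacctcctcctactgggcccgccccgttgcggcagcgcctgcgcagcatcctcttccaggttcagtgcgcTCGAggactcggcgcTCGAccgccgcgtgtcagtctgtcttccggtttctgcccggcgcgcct
Cstf1, chr2:172370803-172371002, plus strand: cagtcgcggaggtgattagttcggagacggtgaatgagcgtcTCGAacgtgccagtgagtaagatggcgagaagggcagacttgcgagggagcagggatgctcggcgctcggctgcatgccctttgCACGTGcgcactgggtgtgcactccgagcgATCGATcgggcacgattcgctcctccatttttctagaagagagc
Vamp4, chr1:162570315-162570514, plus strand: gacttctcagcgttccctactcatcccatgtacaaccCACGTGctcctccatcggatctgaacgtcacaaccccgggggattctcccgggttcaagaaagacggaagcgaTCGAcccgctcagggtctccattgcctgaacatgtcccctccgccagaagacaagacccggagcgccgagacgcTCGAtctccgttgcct
Ambra1, chr2:91729938-91730137, plus strand: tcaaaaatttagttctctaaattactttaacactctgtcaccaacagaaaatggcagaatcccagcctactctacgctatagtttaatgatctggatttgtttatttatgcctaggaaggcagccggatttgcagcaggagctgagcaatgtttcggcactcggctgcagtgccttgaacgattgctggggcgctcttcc

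The summit lay 53 bases before the listed start of Cox19 and C2cd5, 71 before that of Exoc2, 13 before that of Rbsn and 74 before that of Cstf1, and 40 bases after that of Vamp4 and 24 after that of Ambra1. Among 51 genes with a listed start and a summit of fold 20 or more, 48 (94.1%) had it within 250 bases of a RefSeq start, at a median of 53 bases before it, and in 38 of the 48 it was upstream. Among 130 genes with a weaker summit 38 had it so near (29.2%).

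In windows from 250 bases before to 50 after the start, ATCGAT occurred in 20.8% of 48 promoters with a summit of fold 20 or more, in 7.89% of 38 with a weaker summit and in 0.856% of all 21263 protein-coding promoter windows. CACGTG occurred in 12.5%, 7.89% and 7.84% of the same windows. TCGA, which is part of ATCGAT and was chosen after the sequences were seen, occurred in 79.2%, 52.6% and 23.9%. ATCGGTAAT, another motif from Miz1 studies, searched on both strands, occurred in none of the summit windows and in 0.0282% of all. The windows also differed in base composition, with a median GC content of 60.7%, 58.0% and 56.3%, and its part in these shares was not tested. The other motifs read the same on both strands.

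Genes with a gene-end summit were more often on than other genes, and those with a strong summit more often than those with a weak one. Of 193 such genes with RNA values 135 were on (69.9%), at a median of 35.4, 35.4 and 34.5 CPM over all 193 in replicates 1, 2 and 3. Of 20418 other protein-coding genes 9773 were on (47.9%), at a median of 0.464 CPM over all 20418. Among genes on alone, the median was 58.4 CPM for the summit genes and 48.3 CPM for the others. The gap between the medians over all genes thus mostly follows the share on. At 100 CPM or more were 16.6% of the summit genes and 12.5% of all protein-coding genes. Genes are not replicates of a condition, and no test was made across them. With a window of 2 kb the share on was 55.1% of the summit genes and 48.0% of the others, and the median of the summit genes was 11.1 CPM. With 1 ChIP library the peaks themselves have no replicate check.

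Of 69 genes with a summit of fold 20 or more 66 were on (95.7%), with medians of 58.5, 56.0 and 54.6 CPM in replicates 1, 2 and 3. Of 124 with a weaker summit 69 were on (55.6%), with a median of 8.14 CPM. At the highest fold, Cox19 had 23.9, 25.7 and 25.03 CPM in replicates 1, 2 and 3, C2cd5 90.5, 83.2 and 80.2 CPM and Exoc2 99.3, 99.9 and 98.5 CPM. Dctn5 and Palb2, which share a summit, had 77.6 ± 0.421 and 27.5 ± 0.190 CPM (SD, n = 3), Taok3 90.3 ± 5.46, Pomt1 60.1 ± 1.14, Rbsn 47.4 ± 0.850 and Psma1, a proteasome subunit at a fold of 54.6, 184 ± 7.22 CPM. The highest RNA among genes of a fold of 20 or more, named after its values were seen, was Rpl9, a ribosomal protein at a summit shared by 2 genes, with 744, 761 and 735 CPM.

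**Figure D5:**
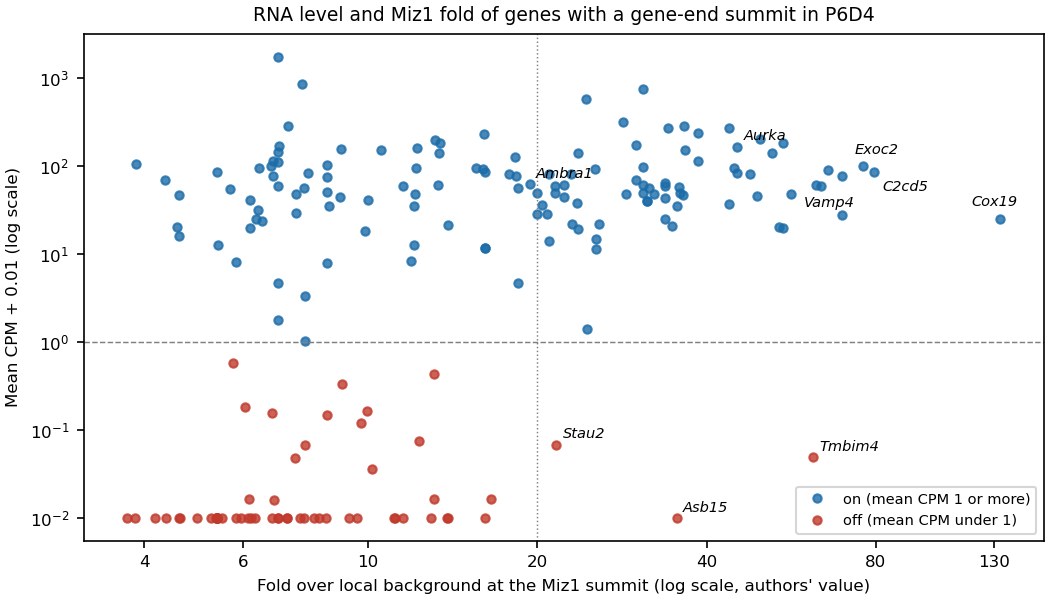
Mean CPM plus 0.01 over the 3 P6D4 RNA libraries (log axis) against the authors' fold at the Miz1 summit (log axis) for the 193 protein-coding genes that had RNA values and a summit no more than 1 kb from either gene end; blue points are on, red points off, the dotted line marks a fold of 20 and the dashed line 1 CPM. Of 69 genes at or right of the dotted line 66 are on, and Tmbim4, Asb15 and Stau2 are off.

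The 3 genes off with a summit of fold 20 or more had almost no reads. Reads that are ambiguous between genes or align to several places are not in the counts, and their part in these values was not tested. Tmbim4, a Golgi membrane protein, had 2, 2 and 2 reads in the 3 libraries at a fold of 61.8. Stau2, an RNA-binding protein, had 2, 5 and 2 reads at a fold of 21.6. Asb15 had none at a fold of 35.4, and its summit is shared with Ndufa5, a subunit of respiratory complex I at 37.5, 32.9 and 33.3 CPM, 69 bases after whose start the summit lies. The next by fold, Rasal2 (16.5), Slitrk3 (16.1), Ctsm, Gm5142, Gpr174, Myom2 and Gm21119, had 0 or 1 read in all except Gpr174, with 0.417 CPM.

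Of 13 known Miz1 targets, 12 were found in the RNA table, 8 of them on (66.7%, against 48.1% of all protein-coding genes). A gene-end summit was present at 3 of the 13. Vamp4 had 58.6, 59.7 and 56.9 CPM at a fold of 63.9, and Ambra1, an autophagy protein, had 61.3, 61.6 and 63.1 CPM at a fold of 19.4. Vps28, a sorting complex protein, had a fold of 52.2 at a summit shared with Tonsl (139.9 ± 0.866 CPM) and was not matched in the RNA table. Rpl22, a ribosomal protein by which Miz1 is known to act in lymphocyte development, had 469.5, 479 and 465 CPM and a peak of fold 36.7 at chr4:152325479-152326030. That summit lay 1358 bases inside the outer end of the RefSeq gene, beyond the 1 kb window, but 68 bases from a listed transcription start.

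The other known targets had their nearest summit farther off. For the cell cycle inhibitor Cdkn1a (119, 139 and 148 CPM) it was 3.42 kb away at a fold of 6.92, for Bcl2 18.6 kb, for Socs1, an inhibitor of cytokine signals with no read in any library, 101 kb, and for Cdkn2b 114 kb. For Itgb1, Itga6, Ccnd1, Cdkn1b and Cdkn1c it was 56.4 to 389 kb away. Among the strongest peaks not at a gene end, those at Gne, Tbc1d14 and Mrps23 were also within 59 bases of a listed start inside the gene's outer limits. Outside the known targets, no gene of the lists drawn up for the line had a gene-end summit, against 1.08% of all protein-coding genes. At that share a list of 19 genes (V(D)J recombination), 34 (Notch pathway) or 80 (T lineage and lymphoid factors) can readily hold none. The absence is therefore no result about the genes of any of these lists.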

How the data were processed

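RNA was measured in 3 libraries of P6D4 and Miz1 binding in 1 ChIP. Per the labels' protocols, RNA libraries were made with the TruSeq Stranded mRNA kit. The authors deposited raw read counts per gene, with TopHat2 2.0.10, Bowtie2 2.10, HTSeq, SAMtools, bedtools and builds mm10 and GRCm38 named in the submitters' processing notes. The strand setting of the counting: not given in the sources used here. Overlapping genes are therefore uncertain. The authors deposited 1 Miz1 peak list made with MACS 2.0.10.20120913 at a q cutoff of 0.01, per the file headers, giving each peak's pileup signal, fold ratio and −log10 p and q values, a p-value and q-value scale. These columns have decimal commas, which were read as decimal points.

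The 5 HTSeq summary rows were left out and counts divided by the total in genes to give CPM. Among these rows are reads in no gene, 15.5 to 16.0% of reads in genes, in no gene and ambiguous between genes together. A gene was on at a mean of 1 CPM. Spread was estimated with edgeR 4.0.16, with DESeq2 1.42.0 size factors as an alternative, in R 4.3.3. Tables and figures used Python 3.11.15, pandas 2.3.3, numpy 2.4.6 and matplotlib 3.10.9. Scripts were tested on simulated data. Gene ends and promoter windows are of RefSeq GRCm38.p6, and a summit within 1 kb of either end was a gene-end summit. No group comparison and no test was made.

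Genes named are the 20 highest, members of the lists (the 5 highest of each mostly with every library), the 10 strongest gene-end summits, the 10 strongest at genes off, and the 10 least even genes. Members and lists were chosen with earlier results of these data known. Alternatives changed thresholds, scaling, windows, peak strength and the libraries used. A few members of the lists and 1 strong summit are not reported here, in text or figures, and are still in the counts.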

Additional observations from a re-analysis of the deposited data

How the results depend on the processing

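The count of genes on in P6D4 stayed between 10180 and 11516 over all settings, and between 10837 and 10847 when 1 library was left out. The biological coefficient of variation was 2.91, 5.88 and 3.96% without replicate 1, 2 and 3, 4.38% with DESeq2 size factors and 4.39% over all genes with a count. The median RNA level of genes with a gene-end summit, 35.4 CPM, was 47.5 CPM at 500 bp, 11.1 at 2 kb (where 55.1% were on, against 69.9%), 47.5 within 1 kb of a RefSeq start, 50.9 where the peak overlapped the end, 47.4 for peaks at or above the median fold, 48.7 for the 10% of peaks of highest fold, 47.9 at a −log10 q of 10 or more and 55.2 for genes with at least 10 counts, where other genes had 36.8. Without summits shared by 2 genes, an alternative chosen after seeing the data, it was 25.1. Leaving out 1 library gave 35.4 to 35.5. Of 3270 values of list members over 6 settings 3194 moved by no more than 1 SD. That count includes the settings that left out 1 library, where a mean of 3 libraries cannot move by 1 SD. For those settings it says nothing of stability. Cd5, Gfi1b, Pparg and Tnfrsf1b changed between on and off. CPM per kb of coding length was not run, because no lengths were at hand. No paired analysis was possible because 1 line was described and no groups were compared. A single ChIP library with few distinct tags limits what the peak list can hold, and counting limits apply to genes with few reads.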

Other observations

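Genes of 2 further processes were read across the 3 P6D4 libraries, with both lists chosen after the values of single genes had been seen. The order of libraries in either list is therefore a description and no independent support for that order. Of 20 genes of glucose uptake and glycolysis 17 were on, against 48.1% of all protein-coding genes. All 17, each at 10 CPM or more, were highest in replicate 3, and 16 were also lowest in replicate 1, an order that 24.2% of all genes at that level had. Their summed level was 16868, 18014 and 19647 CPM in replicates 1, 2 and 3, and the ratio of the highest to the lowest library was 1.05 to 1.30. Pgk1, which makes ATP in glycolysis, had 1431, 1687 and 1824 CPM, and the glucose transporter Slc2a1 had 189, 203 and 244 CPM. Slc16a3, a lactate exporter, had no read in any library.

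Of 16 genes of the response to amino acid supply 14 were on, against 48.1% of all protein-coding genes. Of these 13 were highest in replicate 1 and lowest in replicate 3, an order that 25.1% of all genes at 10 CPM or more had, with ratios from 1.13 to 1.83 over the 14. The summed level was 4130.1, 3617 and 3227 CPM. Atf4, the factor that drives the response, had 789, 739.8 and 696 CPM, Psat1 of serine synthesis 677, 594 and 543 CPM and the cystine transporter Slc7a11 199.6, 155 and 121 CPM. Asns, which makes asparagine, had 8, 4 and 7 reads in the 3 libraries, or 0.123 CPM, beside Atf4. The libraries carry no batch or culture label.

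The peaks with the most Miz1 tags were not those of highest fold. The highest pileup, 501 tags, was at chr2:98666100-98667526 with a fold of 14.2, and the next, 446 tags, at chr9:3000006-3005266 with a fold of 11.8. These peaks were 1427 and 5261 bp long, against a median of 386 bp over all peaks. Fold is taken over the local background, so the background was also high there. Whether their tags mark Miz1 binding or repeated sequence was not tested.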
